A study of Brassica napus with 10 samples.

Results

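The comparison described here set embryogenic structures of *Brassica napus* microspore cultures grown with the higher dose of trichostatin A (HS + TSAhigh) against pollen that developed in culture. It used 6 of the 10 RNA-seq libraries of the series, 3 in each group, chosen by their labels alone, and every one of the 59458 genes in the count table. All cultures were 3 days old, came from the single line DH12075, which responds weakly to embryo induction, and carried the pLEC1:LEC1-GFP reporter, which is driven by the promoter of the embryo identity gene LEC1. For HS + TSAhigh, microspores were heat-stressed at 33 °C for 24 h with 0.5 µM TSA and then kept at 25 °C in fresh medium. The GFP-positive structures, which are a mixture of embryogenic calli and embryos, were then sorted by flow cytometry. For pollen, microspores were kept at 18 °C with the TSA solvent DMSO and were not sorted. The remaining group, HS + TSAlow (4 libraries), differed from HS + TSAhigh in the dose, 0.05 µM, and serves here to show which changes were also found at that dose. Each library was made from 150000 pooled cells. Against pollen, the kind of cell, the sort, the heat stress, the TSA and the temperature of further culture all change at once and cannot be told apart. In these bulk samples, fewer cells of a type and less RNA per cell cannot be told apart either.

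A microspore is the haploid product of male meiosis. It normally divides asymmetrically into a vegetative and a generative cell and matures into pollen, but after heat stress some microspores divide as if they were zygotes and form embryos or embryogenic calli. TSA blocks histone deacetylases, the enzymes that remove acetyl groups from histones. Histone acetylation is linked with open chromatin and active transcription, and blocking its removal raises the frequency of embryogenic divisions in this species. *B. napus* is an allotetraploid, with 10 A chromosomes from *B. rapa* and 9 C chromosomes from *B. oleracea*, so many genes have near-identical copies on both, and reads that could belong to either make the split between copies uncertain.

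Total counts were 58468526 to 67884748 in HS + TSAhigh, 51838498 to 61458274 in HS + TSAlow and 93367646 to 109105528 in pollen. Within HS + TSAhigh, libraries 2 and 3 resembled each other most, with a correlation of 0.96 across genes on the log2 scale, against 0.91 and 0.89 with library 1. HS + TSAhigh library 1 correlated by 0.904 with HS + TSAlow library 1 and by 0.908 with HS + TSAlow library 4. Those HS + TSAlow libraries correlated by 0.99 with each other. Libraries thus resembled each other across doses too, and the test between the doses treated all of them as independent. The 3 pollen libraries correlated by 0.98 with each other and by 0.63 to 0.73 with the HS + TSAhigh libraries. The sources pair gene identifiers with gene names only for a list of endoplasmic reticulum (ER) stress genes, so embryo and pollen markers could not be checked and most genes are described here by position, exon number and level. The labels call the libraries biological replicates without naming separate plants or culture dates, so p-values measure the spread between these libraries.

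A large part of the genes differed between the structures and pollen, more of them higher than lower. Of 45264 genes with enough counts to test, 12426 were higher in HS + TSAhigh (27.5%) and 8493 were lower (18.8%), together 46.2%, at an adjusted p of at most 0.05 (edgeR quasi-likelihood test). The genes that rose did so by more than the others fell. Among genes called higher, the median log2 fold change was 2.80, and 10595 of them rose at least 2-fold, 5411 at least 10-fold and 3537 at least 32-fold. Among genes called lower, the median log2 fold change was -1.28, and 5533 fell at least 2-fold, 1287 at least 10-fold and 708 at least 32-fold. The median over all tested genes was 0.09. Large fold changes often start from very low levels, where they rest on few counts. Of the genes called higher, 24.6% had a pollen mean under 0.1 counts per 1000000 (CPM). Of the genes called lower, 7.64% had an HS + TSAhigh mean under 0.1 CPM. Without regard to the test, 14266 genes had every HS + TSAhigh library above every pollen library (31.5% of those tested) and 12296 had every one below (27.2%). Without HS + TSAhigh library 1 the counts were 12197 higher and 9124 lower.

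**Figure D1:**
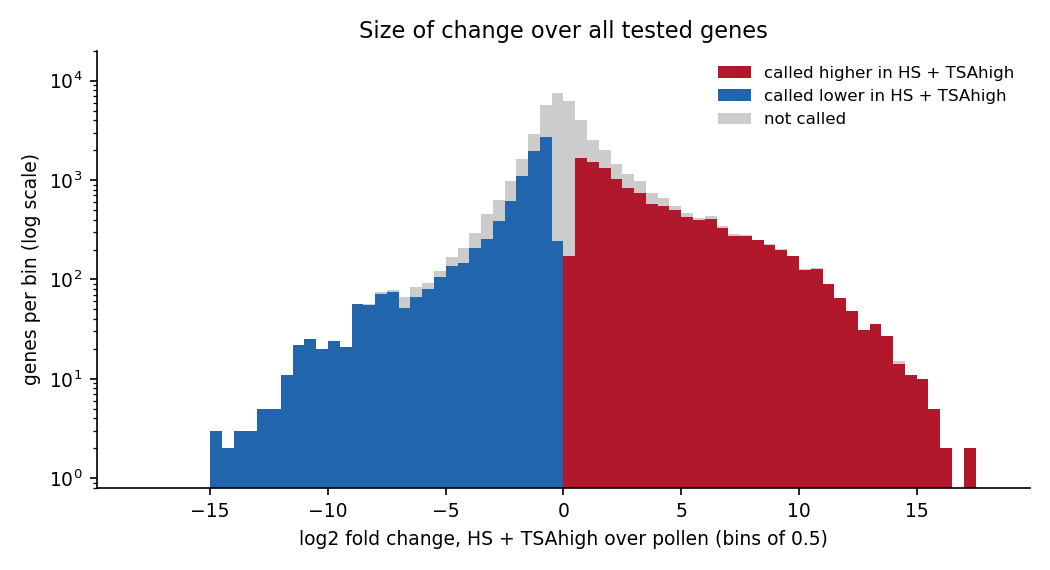
Histogram of the log2 fold change of HS + TSAhigh over pollen for 45264 tested genes, in bins of 0.5, with the number of genes per bin on a log axis. Red marks the 12426 genes called higher, blue the 8493 called lower and grey the genes not called. The right tail is the heavier one, with 3537 genes called at least 32-fold higher against 708 called at least 32-fold lower.

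The 2 sets also took different parts of the RNA. Genes called higher held 36.4%, 40.7% and 43.4% of the counts of the 3 HS + TSAhigh libraries, against 14.2%, 13.2% and 13.8% in pollen. Genes called lower held 17.21%, 16.81% and 15.04% in HS + TSAhigh, against 38.8%, 42.1% and 40.6% in pollen. The sets were defined by this contrast, so these shares describe its size and are no test of it. Genes that were abundant in pollen mostly did not rise. Of the 1808 genes with a pollen mean of 100 CPM or more, 245 were called higher (13.6%) and 787 lower (43.5%). Of the 1764 genes at that level in HS + TSAhigh, 801 were called higher (45.4%) and 234 lower (13.3%). Sorting genes by their level in one group favours one direction, and these shares are given as a description.

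Measures over whole libraries differed less. When every library was thinned to 51838498 counts, 46328 ± 797 genes had at least 1 count in HS + TSAhigh and 44996 ± 1012 in pollen (SD, n = 3 each). The HS + TSAhigh libraries had 45911, 47247 and 45825 such genes, and the pollen libraries 45605, 45556 and 43828. Every HS + TSAhigh library was above every pollen library, with a two-sided exact permutation p = 0.1, the smallest that 3 against 3 libraries can give (adjusted p = 0.133 over the 4 library-level measures tested). The 100 most abundant genes of each library held 8.49% ± 0.94 of the counts in HS + TSAhigh and 8.51% ± 0.72 in pollen (SD, n = 3 each, exact permutation p = 1). This difference was smaller than the spread within either group.

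A set of genes went on or off. A gene was taken as silent in a group when it was under 0.1 CPM in each of its libraries and as on when it was at 1 CPM or more in each. By this rule 893 genes were silent in pollen and on in HS + TSAhigh (1.5% of all 59458 genes), and 378 of them had no count in any pollen library. In the other direction 135 genes were on in pollen and silent in HS + TSAhigh (0.227%), of which 79 had no count in any HS + TSAhigh library. Summed over the 893 genes, the level was 7559, 13889 and 17195 CPM in the HS + TSAhigh libraries, against 13.1, 12.4 and 9.96 CPM in the pollen libraries. HS + TSAhigh library 1 was the lowest of its group, and without it 1288 genes went on and 200 went off. The number of genes that went off was 229 without HS + TSAhigh library 2. The rule asks every library to pass, so leaving out a library can only keep or raise these counts. The 893 genes that went on had a median level of 5.90 CPM in HS + TSAhigh, and 289 of them averaged over 10 CPM and 20 over 100 CPM. Single-exon genes made up 27.1% of those that went on and 24.4% of those that went off, compared with 19.4% of all genes.

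The 2 directions differed at the lower TSA dose. Of the 893 genes on in HS + TSAhigh, 519 were also at 1 CPM or more in every HS + TSAlow library and 12 were silent in all 4. Their summed level was 6393, 13829, 12590 and 6079 CPM in the HS + TSAlow libraries, which overlaps the range in HS + TSAhigh. The test between the doses, which called 4.94% of tested genes higher and 5.46% lower in HS + TSAhigh, called 148 of them higher and 12 lower. The 135 genes that were silent in HS + TSAhigh kept part of their RNA at the lower dose. They summed to 1.44, 1.38 and 1.25 CPM in HS + TSAhigh, to 263, 112, 269 and 246 CPM in HS + TSAlow, and to 1017, 1808 and 796 CPM in pollen. The rule itself keeps HS + TSAhigh and pollen apart here, and the HS + TSAlow libraries, which it did not use, lay between them. The test between the doses called 90 of them lower in HS + TSAhigh. Being on or silent in HS + TSAhigh was part of the rule, which favours the 148 higher calls in the first set and the 90 lower calls in the second.

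**Figure D2:**
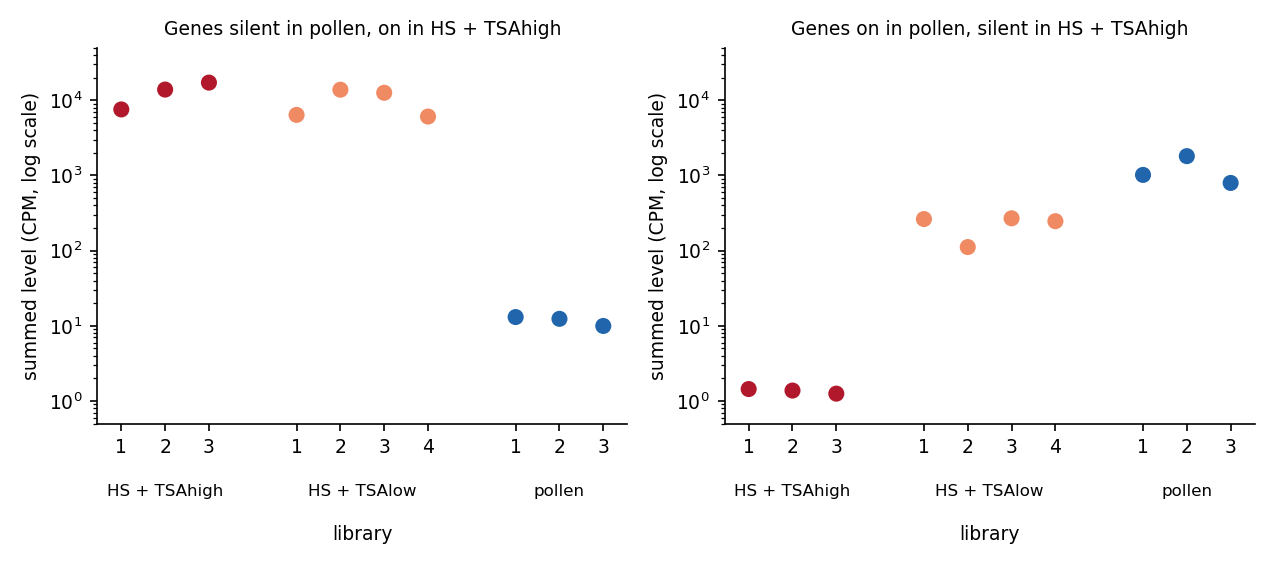
Summed level in CPM, on a log axis, of the 893 genes silent in pollen and on in HS + TSAhigh (left) and of the 135 genes on in pollen and silent in HS + TSAhigh (right), with 1 point for each library of HS + TSAhigh, HS + TSAlow and pollen. On the left the HS + TSAlow libraries, at 6079 to 13829 CPM, overlap the HS + TSAhigh libraries. On the right they lie between the other groups, at 112 to 269 CPM.

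The gene that went on with the highest level was C05p55410.1_BnaDAR, a gene of 2 exons on the + strand of chromosome C05 (51291353 to 51293204). It was at 83.9, 312 and 485 CPM in the HS + TSAhigh libraries, and no pollen library had a count. Against a floor of 3 counts in each pollen library, it was at least 9953-fold higher (adjusted p = 0.000805 from edgeR). HS + TSAlow libraries held 13.3, 104, 93.8 and 14.3 CPM, and the doses overlapped. Over the alternatives its adjusted p ranged from 1.22e-24 to 0.067, and the call was lost in limma-voom. The gene that went off from the highest level was A02p17510.1_BnaDAR, with 3 exons on the + strand of A02 (12088395 to 12090570). In the 3 HS + TSAhigh libraries it had 0, 2 and 0 counts, against 174, 484 and 230 CPM in pollen (adjusted p = 2.36e-05 from edgeR). HS + TSAlow libraries were in between, at 38.3, 7.26, 20.5 and 44.5 CPM. No name or role is given to either gene by the sources used here.

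A genes were called higher somewhat more often than C genes. Of 21372 tested A genes, 29.3% were higher and 18.4% lower in HS + TSAhigh. Of 23391 tested C genes, 25.8% were higher and 19.1% lower. The median log2 fold change was 0.17 over A genes and 0.03 over C genes. C chromosomes supplied 49.77% ± 0.09 of the counts in HS + TSAhigh and 50.52% ± 0.07 in pollen (SD, n = 3 each). The HS + TSAhigh libraries were at 49.77%, 49.68% and 49.87%, all below the pollen libraries at 50.51%, 50.46% and 50.60% (exact permutation p = 0.1, the smallest possible, adjusted p = 0.133).

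One chromosome stood apart from the other 18. On C02, 14.3% of 2151 tested genes were higher and 23.1% lower in HS + TSAhigh, with a median log2 fold change of -0.55. On every other chromosome between 25.6% and 30.8% were higher and between 16.5% and 19.8% lower. C02 held 2.03%, 2.28% and 2.44% of the counts in the HS + TSAhigh libraries, against 2.82%, 3.13% and 2.95% in the pollen libraries, and the groups did not overlap. At the lower dose it held 2.79% to 3.52%. Without C02 the share of C genes called higher was 27.0%, and without C02, C04 and C07 it was 27.1%, both still below the share of A genes. For the C share of counts, HS + TSAhigh minus pollen was -0.75 percentage points with all chromosomes and -0.31 without C02, C04 and C07. The C02 share itself differed by -0.72 points. At the lower dose the mean C share of counts was 49.9%, also below the pollen mean of 50.5%. The mean C02 share was not lower at that dose, at 3.06% against 2.97% in pollen. A lower C share was thus also found without a lower C02 share.

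**Figure D3:**
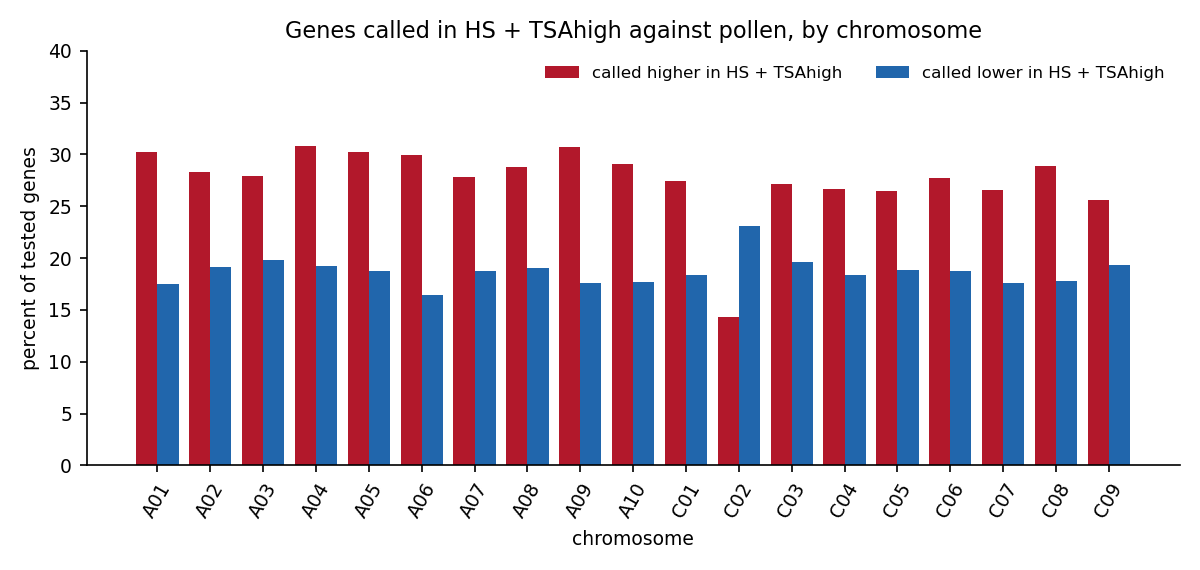
Percent of tested genes called higher (red) and lower (blue) in HS + TSAhigh against pollen on each of the 10 A and 9 C chromosomes. C02 is the one chromosome with more genes called lower (23.1%) than higher (14.3%).

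The shift was not even along C02, and stretches of C04 and C07 shared it. The genome was divided into windows of 2 Mb, a rule chosen after the values had been seen, and 393 windows held at least 15 tested genes with a pollen mean of 2 CPM or more. The median log2 fold change was -1 or lower in 12 windows. Of these, 8 lay side by side on C02 (46000001 to 62000000), 3 on C04 (1 to 6000000) and 1 on C07 (46000001 to 48000000). The lowest window on any other chromosome had a median of -0.75 and the median window -0.19. Each library was set against the pollen mean for genes with a pollen mean of 2 CPM or more, on the scale of log2(CPM + 0.5) and centred on the library's median over all such genes. The median log2 ratio of the 281 such genes in the C02 stretch was -2.67, -1.35 and -1.03 in the HS + TSAhigh libraries, against -0.28, 0.19 and 0.04 in the pollen libraries. All 3 HS + TSAhigh libraries were low there, library 1 by far the most. In HS + TSAlow the same ratio was -2.53, -0.25, 0.29 and -2.54. Libraries 1 and 4 of that group were thus as low as HS + TSAhigh library 1, while libraries 2 and 3 were near pollen.

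Within each group, the stretches on C04 and C07 ordered the libraries much as the C02 stretch did, with the lowest values in HS + TSAhigh library 1 and HS + TSAlow libraries 1 and 4. The C04 stretch had median log2 ratios of -2.38, -1.27 and -0.92 in HS + TSAhigh and -0.22, 0.18 and 0.01 in pollen. Its values in HS + TSAlow were -2.27, -0.24, 0.34 and -2.31. The C07 stretch had -1.25, -0.71 and -0.42 in HS + TSAhigh and -0.20, 0.06 and 0.04 in pollen, with -1.24, -0.18, 0.23 and -1.32 in HS + TSAlow. The 3 stretches together held 1017 tested genes, 2.25% of all, and 155 of them were called lower, 1.83% of all lower calls. In the C02 stretch, 299 of 561 tested genes had every HS + TSAhigh library below every pollen library (53.3%, compared with 27.2% of all tested genes), and 85 were called lower (15.2%, compared with 18.8%). The stretches were chosen for low levels in HS + TSAhigh against pollen, so these shares describe them and are no test. What sets these stretches and libraries apart was not tested.

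The rest of C02 showed a smaller shift of another kind. Its median log2 ratio was -0.38, -0.32 and -0.23 in the 3 HS + TSAhigh libraries and -0.07, 0.09 and -0.01 in the 3 pollen libraries. The 4 HS + TSAlow libraries were at 0.03, 0.07, 0.12 and -0.01, so every HS + TSAhigh library lay below every other library. For comparison, the whole-chromosome medians of the 18 other chromosomes lay between -0.10 and 0.10 in HS + TSAhigh. Of 1590 tested genes there, 278 were higher in HS + TSAhigh than in pollen (17.5%, compared with 27.5% of all tested genes) and 412 lower (25.9%, compared with 18.8%). The test between the doses called 212 of them lower in HS + TSAhigh than in HS + TSAlow (13.3%, compared with 5.46%). The shift had the same sign and a similar size without HS + TSAhigh library 1, at a median log2 fold change of -0.36 against -0.33 with it.

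**Figure D4:**
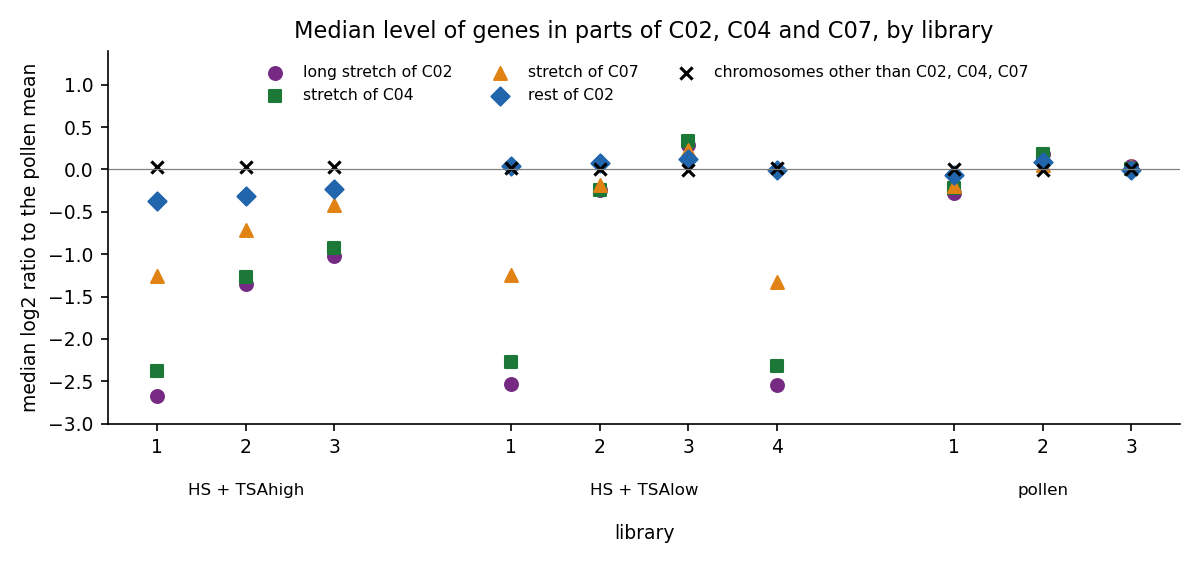
Median log2 ratio to the pollen mean of genes in the stretches of C02, C04 and C07, in the rest of C02 and on the other chromosomes, for each library of HS + TSAhigh, HS + TSAlow and pollen, on the scale of log2(CPM + 0.5), centred on each library's median. The stretches are lowest in HS + TSAhigh library 1 and HS + TSAlow libraries 1 and 4, and the rest of C02 is below 0 in all 3 HS + TSAhigh libraries and near 0 in the others.

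The direction of change followed the number of annotated exons. Among single-exon genes, 35.4% of 7365 tested genes were higher and 11.1% lower in HS + TSAhigh. The share called higher was 29.8% with 2 exons, 29.6% with 3 to 4, 25.7% with 5 to 9, 21.2% with 10 to 19 and 15.3% with 20 or more. The share called lower went the other way, at 15.7%, 16.5%, 21.0%, 25.4% and 26.2% over the same classes. The median log2 fold change was 0.68 for single-exon genes and -0.22 for genes with 20 or more exons. Exon number goes together with length and level in this annotation. Single-exon genes had a median of 995 exonic bases and a median level of 2.75 CPM, compared with 3499 bases and 19.8 CPM for genes with 20 or more. In genes of 1000 to 2000 exonic bases with a mean of at least 5 CPM, the share called higher was 37.4% with 1 exon and 20.8% with 10 to 19, and the share called lower 16.8% and 26.8%.

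The same lean showed in the libraries as a whole. Single-exon genes supplied 10.8%, 11.8% and 12.05% of the counts in the HS + TSAhigh libraries, against 8.29%, 7.73% and 7.85% in the pollen libraries. The means were 11.5% ± 0.69 and 7.96% ± 0.30 (SD, n = 3 each), and the groups did not overlap (exact permutation p = 0.1, the smallest possible, adjusted p = 0.133). Genes with 20 or more exons supplied 5.29%, 4.67% and 4.59% in HS + TSAhigh, against 5.71%, 5.61% and 5.75% in pollen. The HS + TSAlow libraries had 11.3% to 12.5% in single-exon genes and 3.62% to 4.19% in genes with 20 or more exons. In genes with 20 or more exons every HS + TSAhigh library was above every HS + TSAlow library and below every pollen library.

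**Figure D5:**
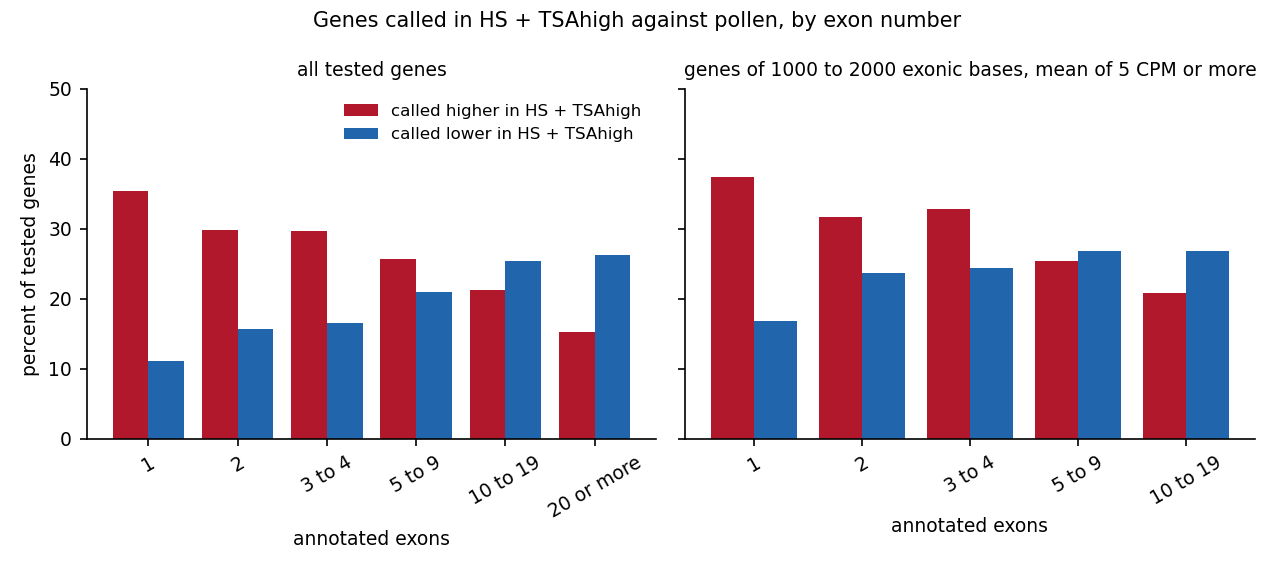
Percent of tested genes called higher (red) and lower (blue) in HS + TSAhigh against pollen by the number of annotated exons, for all tested genes (left) and for genes of 1000 to 2000 exonic bases with a mean of at least 5 CPM (right, without the class of 20 or more exons, which has 23 such genes). On the left the share called higher goes from 35.4% with 1 exon to 15.3% with 20 or more, and the share called lower from 11.1% to 26.2%.

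Part of the change was found at the higher TSA dose and not at the lower. The comparisons of the doses with pollen share the pollen libraries. In HS + TSAlow 43.7% of tested genes were called against pollen. Of the genes called in HS + TSAhigh, 2614 of the higher ones (21.0%) and 3207 of the lower ones (37.8%) were not called in HS + TSAlow. Most of these did not differ detectably between the doses. The test of HS + TSAhigh against HS + TSAlow, which called 10.4% of tested genes, also passed for 681 of the higher (1.5% of tested genes) and 979 of the lower genes (2.16%). For the 681 genes the median log2 fold change over pollen was 1.78 in HS + TSAhigh and 0.07 in HS + TSAlow. Their median level was 12.1, 15.01 and 14.8 CPM in the HS + TSAhigh libraries, 4.26 to 4.90 CPM in HS + TSAlow and 3.93 to 4.34 CPM in pollen. For the 979 genes the medians were -1.50 in HS + TSAhigh and -0.15 in HS + TSAlow. Their median level was 4.74, 5.11 and 4.27 CPM in HS + TSAhigh, 12.2 to 15.1 CPM in HS + TSAlow and 15.03 to 16.03 CPM in pollen. These levels follow from the rule and describe its size.

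The 2 sets also differed in features that the rule did not use. Genes with 10 or more exons made up 27.2% of the 681 higher and 9.70% of the 979 lower genes, compared with 20.5% of all tested genes. The median exonic length was 1761 bases in the higher and 905 bases in the lower set. This runs against the lean over all genes, in which many-exon genes were more often lower. C02 held 4 of the 681 higher genes (0.587%) and 111 of the 979 lower genes (11.3%), compared with 4.75% of tested genes, and 8 of the 111 lay in its long stretch. The A chromosomes held 51.6% of the placed higher and 47.6% of the placed lower genes, compared with 47.7% of tested genes.

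These 2 counts depended on the libraries and the fit. They were 345 higher and 627 lower with the replicate number as a block. Leaving out HS + TSAhigh library 2 gave 322 and 540, and leaving out HS + TSAhigh library 3 gave 368 and 486. Without HS + TSAlow library 1 they were 319 and 530, and without HS + TSAlow library 4 the higher genes numbered 451.

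A07p29870.1_BnaDAR, a single-exon gene on the + strand of A07 (21610850 to 21611593), had the largest rise among those of the 681 that averaged at least 5 CPM in HS + TSAhigh. It had 92, 626 and 622 counts in the HS + TSAhigh libraries, or 1.31, 10.8 and 10.3 CPM, and no count in any HS + TSAlow or pollen library. Against a floor of 3 counts in each pollen library, it was at least 252-fold higher (adjusted p = 0.000822 from edgeR). Among the lower genes that averaged at least 5 CPM in pollen, A10p13590.1_BnaDAR, with 4 exons on the - strand of A10 (11298685 to 11301651), fell most. It had no count in any HS + TSAhigh library, against 39.2, 83.9 and 35.8 CPM in pollen, and was at least 1104-fold lower by the same floor (adjusted p = 0.00225 from edgeR). HS + TSAlow libraries held 9.78, 0.197, 8.07 and 12.7 CPM, each below every pollen library, although the call at that dose was missed (adjusted p = 0.064 from edgeR).

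The one set of named genes in the sources, the copies of arabidopsis genes of the ER stress response, leaned to lower levels. The ER folds secreted and membrane proteins, and when unfolded proteins build up, sensors in its membrane raise the transcription of chaperones. The study listed 71 copies, of which 52 had counts in the table used here and all 52 were tested. In HS + TSAhigh 29 were lower (55.8%, compared with 18.8% of all tested genes), 3 were higher (27.5% over all genes) and 20 did not pass the test. The median log2 fold change was -0.95, compared with 0.09 over all tested genes. Of all tested genes with a pollen mean of 10 to 100 CPM, 33.1% were lower and 13.8% higher. At 100 CPM or more, 43.5% were lower and 13.6% higher. Many of the 52 copies were at such levels in pollen, and a difference from genes of like level was not tested.

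Among ER lumen chaperones, 15 of 17 copies of BiP and its co-chaperones were lower (88.2%, compared with 18.8% of all tested genes). The other 2 did not pass the test. BiP2.1 (A03p17290.1_BnaDAR), an HSP70 chaperone, was at 338, 260 and 275 CPM in HS + TSAhigh, against 698, 891 and 1062 CPM in pollen. The log2 fold change of BiP2.1 was -1.60 (SE 0.16, edgeR adjusted p = 1.57e-05). BiP2.3 (C03p20410.1_BnaDAR) was at 432, 321 and 307 CPM, against 800, 1004 and 1196 CPM in pollen. ERDJ3B.2 (A07p26000.1_BnaDAR) and ERDJ3B.5 (C06p28290.1_BnaDAR) are copies of a J-domain co-chaperone of BiP. ERDJ3B.2 had 1.37, 0.654 and 0.363 CPM in HS + TSAhigh, against 2.39, 4.30 and 3.75 CPM in pollen. ERDJ3B.5 had 4.45, 0.929 and 0.989 CPM, against 5.18, 9.78 and 10.8 CPM in pollen. Both were called lower here (log2 fold change -2.12 with SE 0.58 for ERDJ3B.2, -2.01 with SE 0.62 for ERDJ3B.5). Neither was called in HS + TSAlow, but the doses themselves were not called different. The call of ERDJ3B.5 was lost without HS + TSAhigh library 2 or 3 or without pollen library 2 or 3 (adjusted p up to 0.0588 from edgeR).

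The lectin chaperones calnexin and calreticulin hold glycoproteins in the ER until they fold. Of their 7 copies, 5 were lower (71.4%, compared with 18.8% of all tested genes) and 2 did not pass the test. CRT1/CRT1A.1 (C09p24090.1_BnaDAR) was at 444, 353 and 362 CPM in HS + TSAhigh, against 736, 775 and 984 CPM in pollen. CNX1.4 (C02p61640.1_BnaDAR) lies in the C02 stretch, and had 352, 323 and 376 CPM in HS + TSAhigh, against 726, 1046 and 1203 CPM in pollen. HS + TSAhigh library 1 was in the middle of its group for this gene. In HS + TSAlow it had 272, 444, 532 and 289 CPM, with libraries 1 and 4 the lowest, as in the stretch. CNX1.2 (A06p28440.1_BnaDAR) was at 138, 152 and 156 CPM, against 177, 227 and 262 CPM in pollen (log2 fold change -0.58, SE 0.19). It was not called in HS + TSAlow (log2 fold change -0.42), but the doses themselves were not called different. The call in HS + TSAhigh was lost in 4 of 18 alternatives, each of which left out 1 library: HS + TSAhigh library 1 or 3, or pollen library 2 or 3 (adjusted p up to 0.118 from edgeR).

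Protein disulfide isomerases, which form and rearrange disulfide bonds, did not share this lean. Of 6 copies, 0 were lower (compared with 18.8% of all tested genes), 5 did not pass the test and 1 was higher. That copy, PDIL1-1/PDI5.3 (C07p21980.1_BnaDAR), was at 101, 73.7 and 66.9 CPM in HS + TSAhigh and 43.1, 50.3 and 72.0 CPM in pollen, and the groups overlapped. Its call was marginal, with a log2 fold change of 0.55, an SE of 0.21 and an edgeR adjusted p of 0.0483, and 13 of 18 alternatives ended it. PDIL1-1/PDI5.2 (A08p28820.1_BnaDAR) and PDIL1-1/PDI5.4 (C08p21100.1_BnaDAR) did not pass the test, at log2 fold changes of 0.53 for the first (SE 0.22) and 0.36 for the second (SE 0.25). PDIL1-1/PDI5.2 was called higher in 3 of 18 alternatives: limma-voom, the replicate block and without pollen library 3 (adjusted p down to 0.0183). The remaining copies of the family did not pass the test either, and their log2 fold changes were below 0, at -0.49, -0.16 and -0.20.

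Among 9 transcription factor copies 6 were lower (66.7%, compared with 18.8% of all tested genes) and 3 did not pass the test. BZIP60.1 (A08p07630.1_BnaDAR) and BZIP60.2 (C08p09220.1_BnaDAR) are copies of the factor whose mRNA is spliced by IRE1 under ER stress in arabidopsis. BZIP60.1 was at 248, 335 and 269 CPM in HS + TSAhigh, against 573, 724 and 607 CPM in pollen (log2 fold change -1.16, SE 0.16). BZIP60.2 was at 137, 122 and 96.9 CPM, against 305, 329 and 281 CPM in pollen (log2 fold change -1.36, SE 0.16). bZIP17.2 (C04p02350.1_BnaDAR), which lies in the C04 stretch, had 0, 0.861 and 2.60 CPM in HS + TSAhigh, against 4.74, 5.57 and 7.95 CPM in pollen, and did not pass the test (adjusted p = 0.358 from edgeR), though it did in limma-voom (adjusted p = 0.0483). It overlaps another annotated gene, and without strand the reads of the 2 cannot be told apart. It is named for its place in that stretch, after its values were seen.

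Of 9 copies of sensors and proteases, 1 was lower (11.1%, compared with 18.8% of all tested genes) and 8 did not pass the test. Whether this family differs from all genes was not tested. IRE1b.2 (A06p35180.1_BnaDAR), a copy of the sensor that splices BZIP60 mRNA, was at 10.8, 8.02 and 7.95 CPM in HS + TSAhigh, against 16.3, 13.8 and 14.4 CPM in pollen. It fell by 0.74 on the log2 scale (SE 0.26, edgeR adjusted p = 0.0367) and was not called in HS + TSAlow (log2 fold change -0.58), but the doses themselves were not called different. In 6 of 18 alternatives the call ended: with the replicate block, without HS + TSAhigh library 2 or 3 and without any pollen library. S1P.1 (A03p09570.1_BnaDAR) and S1P.2 (C03p11140.1_BnaDAR), copies of the protease that releases bZIP17 and bZIP28 in arabidopsis, were not called, at log2 fold changes of -0.01 for S1P.1 (SE 0.22) and -0.37 for S1P.2 (SE 0.32).

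The 4 copies concerned with transport split by gene. P24DELTA5.1 (C05p20860.1_BnaDAR) and P24DELTA5.2 (C08p21160.1_BnaDAR) are copies of a p24 cargo receptor that cycles between the ER and the Golgi. P24DELTA5.1 was at 36.5, 44.4 and 45.6 CPM in HS + TSAhigh, against 12.3, 10.7 and 9.56 CPM in pollen (log2 fold change 1.96, SE 0.23). P24DELTA5.2 was at 41.5, 51.8 and 65.3 CPM, against 28.8, 25.3 and 28.3 CPM in pollen (log2 fold change 0.94, SE 0.23). ECA4.1 (A09p66320.1_BnaDAR) and ECA4.2 (C08p50340.1_BnaDAR), copies of an ER-type calcium pump, were lower. ECA4.1 was at 48.0, 69.0 and 59.3 CPM in HS + TSAhigh, against 137, 164 and 190 CPM in pollen (log2 fold change -1.48, SE 0.18), and ECA4.2 had a log2 fold change of -1.03 (SE 0.22).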

How the data were processed

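The cDNA was amplified with a kit that keeps no strand (SMART-seq v4). The authors aligned reads to the Darmor-bzh version 10 genome with STAR and deposited raw counts of reads over annotated exons from featureCounts. Versions are uncertain, since the processing notes of the submitters give STAR 2.7.10a with Subread 1.5.2 and the published methods give others. Of the 61170 rows deposited, 1712 exact repeats were dropped, and 59458 genes remained. Value columns without a sample numbered 0. Between 62.9% and 73.4% of counts over 20 were even, as when both mates of a pair are counted, so counts overstate independent fragments and their precision covers counting error only. Normalized values and the authors' DESeq2 fold changes and p-values for 3 contrasts were also deposited and were not used.

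The analysis of counts used R 4.3.3 with edgeR 4.0.16: filterByExpr (minimum count 10, minimum total 15), TMM scaling, and the robust quasi-likelihood test over all 10 libraries, with p-values of the 45264 tested genes adjusted by Benjamini and Hochberg. SE values are the size of the log2 fold change over the root of F. CPM values are TMM-scaled. Two-sided exact permutation tests were used for library-level measures. Alternatives used DESeq2 1.42.0 and limma-voom 3.58.1, other scalings and filters, a replicate block, and each library left out in turn. The fits were tested on simulated data. Same-numbered HS + TSAhigh and pollen libraries deviated from their group means with correlations of 0.04, 0.05 and -0.01. For same-numbered HS + TSAhigh and HS + TSAlow libraries the correlations were 0.33, 0.13 and 0.19. HS + TSAhigh library 1 also had 0.30 with HS + TSAlow library 4. The main fit treated no libraries as pairs. The replicate block used the library number in every group, so same-numbered pollen libraries shared a block with the others. Other software was Python 3.11.15 with pandas 2.3.3, and numpy 2.4.6, then scipy 1.17.1, with figures from matplotlib 3.10.9.

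Genes, lists and rules were chosen with earlier results of these data known. The genes named are the gene that went on with the highest HS + TSAhigh level, the gene that went off from the highest pollen level, and the largest rise and fall (mean of at least 5 CPM in the higher group) among genes changed in HS + TSAhigh and not in HS + TSAlow. From the ER stress list they are every copy called higher, the 2 most abundant copies of each family and every copy called in HS + TSAhigh but not in HS + TSAlow. Of the gene identifiers, 0 matched the RefSeq gene table supplied, so no other names and no sequences are given.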

Additional observations from a re-analysis of the deposited data

Results flagged for a closer look

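The doses differed for part of the genes. In HS + TSAhigh 681 genes were higher and 979 lower than in pollen, were not called in HS + TSAlow against pollen, and passed the test of HS + TSAhigh against HS + TSAlow (edgeR, adjusted p of at most 0.05). Both counts depended on the libraries and the fit, at 192 to 1170 higher and 216 to 1472 lower genes over the alternatives.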

How the results depend on the processing

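The counts of genes higher and lower in HS + TSAhigh kept within 1.5 times their value in every alternative (9009 to 13520 higher, 5132 to 10013 lower) except 5132 lower genes at an adjusted p of at most 0.01. Leaving out 1 library gave 10517 to 12197 higher and 6543 to 9312 lower. The replicate block gave 11625 higher and 8286 lower. Without C02, C04 and C07, an alternative chosen after seeing the data, the ratio of the share of A to the share of C genes called higher stayed above 1 (1.08). The genes changed in HS + TSAhigh but not in HS + TSAlow numbered 1170 higher and 1472 lower in DESeq2, 345 and 627 with the replicate block, and 196 and 253 at an adjusted p of at most 0.01. They numbered 192 and 216 when at least 2-fold at the higher and at most 1.2-fold at the lower dose were required. Limma-voom gave 1016 higher and 701 lower. Leaving out 1 library gave 319 to 877 higher and 486 to 1269 lower.

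Genes that went on numbered 378 with 0 counts required and 275 with 5 CPM required, and genes that went off 79 and 24. Leaving out 1 library, which can only keep or raise these counts, gave 957 to 1288 on and 137 to 229 off. The share of counts in the 100 most abundant genes had a difference of -0.02 percentage points, which turned to 0.067 for the 1000 most abundant genes, 0.48 without HS + TSAhigh library 1 and 0.35 without pollen library 2 (range -0.45 to 0.48). The median log2 fold change of the C02 stretch was -1.50, and -2.43 in limma-voom and -2.41 with the replicate block. The cause of these differences was not tested. The exon and C-chromosome results kept their direction in all alternatives run. Of 24 named genes, 17 kept their side of the threshold in every alternative. With 3 libraries against 3, no exact p under 0.1 was possible for the library-level measures.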
